A study of Mus musculus with 4 samples.

Results

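The comparison set mouse hearts that carried YAP5SA under a maternal high-fat diet (HFD) beside YAP5SA hearts under maternal chow, each read as 1 single-nucleus RNA library. Nuclei entered with at least 500 genes and at most 5% of UMIs (unique molecular identifiers, which count RNA molecules) from mitochondrial genes. A nucleus was called a cardiomyocyte where Ttn, Ryr2, Trdn, Ctnna3, Rbm20 and Tnnt2 held at least 0.8% of its UMIs, and another cell where they held under 0.5%. By these limits 18998 nuclei were compared, out of 36648 barcodes and 34165 kept nuclei in the whole series. They were 5296 cardiomyocyte and 3172 other-cell nuclei on chow and 5881 and 4649 on HFD.

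All hearts came from wild-type mice at postnatal day 12. At postnatal day 7 the pups had received AAV9-cTnT-YAP5SA, a virus whose cardiac troponin T promoter limits the transgene to cardiomyocytes, or saline in the controls, and the maternal diet then ran for 5 days. The control libraries, 1 on chow and 1 on HFD, were measured the same way and are given beside many of the results as the diet difference without the virus. Neither the strain nor the number of hearts per library is stated in the labels. With 1 library per group there is no replicate check, so no p-value is given, and every interval covers counting error only.

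Several facts about the libraries touch every value below. The diet was taken from the titles, but the treatment labels of 2 libraries name the other diet: high-fat for YAP5SA on chow, and chow for control on HFD. If those labels held, both YAP5SA libraries would be on HFD and both control libraries on chow. Neither pair would then hold a diet difference. With 1 library per group no value can be given without a doubted library. Xist, the RNA of the inactive X chromosome, had 297 UMIs in YAP5SA on chow and between 101436 and 151310 in each of the other 3 libraries, while the Y-linked gene Ddx3y had 4562 UMIs there and at most 17 elsewhere. YAP5SA on chow was thus the only male library, and sex and diet cannot be told apart between the YAP5SA hearts. The libraries held 43.4 to 61.2 × 1e6 UMIs and the YAP5SA libraries shared 28 barcodes. Median depth was close, at 5213 UMIs per cardiomyocyte nucleus on chow and 5233 on HFD, and 3499 and 3490 per other-cell nucleus. Defining markers fitted the cardiomyocyte call: Myh6, the main heavy chain of mouse heart myosin, stood at 2317 counts per 1e6 UMIs (CPM) on chow and 2481 on HFD in the cardiomyocyte sums, against 103 CPM in either other-cell sum.

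As background, YAP is a transcriptional co-activator that the Hippo kinases keep out of the nucleus, and it acts through TEAD proteins on genes of growth, cell shape and matrix. The 5SA form lacks the serines through which those kinases restrain it. Around birth the heart turns from glucose and lactate to fatty acids as its main fuel, a switch driven in part by PPAR nuclear receptors, which bind fatty acids and switch on genes for their uptake, oxidation and storage. Cardiomyocytes stop dividing over the same days, which is why fuel and regeneration are studied together.

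The YAP5SA libraries differed along both axes. On HFD, cardiomyocyte sums held more RNA of fatty acid oxidation and PPAR target genes and less RNA of YAP targets, cytoskeletal genes and natriuretic peptides, and a smaller share of the cardiomyocyte nuclei carried the strong YAP5SA response. Among 9245 genes at a mean of at least 10 CPM, 350 (3.79%) stood 2-fold or more higher on HFD and 83 (0.898%) 2-fold or more lower. Between the controls, 254 of 8786 genes (2.89%) were at least 2-fold higher on HFD and 40 (0.455%) lower. Of the 350, 251 were also at the floor in the controls, where 15 stood 2-fold or more higher and 5 lower by as much. Of the 83, 55 were at the floor in the controls, where 2 stood 2-fold or more lower and 11 higher by as much. The X chromosome, with 288 of the 9245 genes, held 6 of the 350 and 3 of the 83.

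The balance of higher and lower genes depended on scaling. Of the genes 2-fold apart, 80.8% were higher on HFD by CPM, 61% with TMM scaling and 57.4% with DESeq2 size factors. Those scalings lowered every cardiomyocyte log2 fold by 0.16 and 0.18, which took the median of all genes from 0.08 to −0.08 and −0.11. List medians below are therefore set beside 0.08, and a list whose median turns negative under a scaling is named as such.

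Genes of fatty acid uptake and oxidation stood higher as a list. Of 33 members 28 reached the floor, 13 were at least 1.5-fold higher and 0 lower, against 12.2% and 3.84% of all genes, and the median log2 fold was 0.57. With either TMM or DESeq2 scaling the count was 5 higher and 1 lower. Of all 9245 genes 707 were then higher and 677 lower with TMM, and 674 and 737 with DESeq2 scaling. In the controls the list lay the other way, with 0 of 29 at least 1.5-fold higher and 16 lower, against 8.02% and 2.31% of all genes, and a median of −0.60. The summed level was 2470 CPM in YAP5SA on chow and 3480 on HFD, against 4780 in control on chow and 3410 in control on HFD. YAP5SA on chow was thus the lowest of the 4 libraries, and YAP5SA on HFD reached the level of the control on the same diet.

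Single members spanned uptake, activation and the oxidation spiral. Slc27a1, a fatty acid transporter, stood at 22.2 CPM in YAP5SA on chow and 55.2 on HFD, against 90.3 and 61.9 in the controls on chow and HFD, the order kept for control values below. Its log2 fold was 1.31 (95% interval 1.19 to 1.43) in YAP5SA and −0.54 in the controls. Acadm, the medium-chain acyl-CoA dehydrogenase, stood at 80.2 CPM on chow and 160 on HFD, against 143 and 88.4, a log2 fold of 1.0 (0.93 to 1.06). Both genes were low in YAP5SA on chow, and Acadm was highest of the 4 libraries in YAP5SA on HFD.

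Hadha and Hadhb, the subunits of the mitochondrial trifunctional protein, and Acaa2, the last thiolase of the spiral, were also higher on HFD in YAP5SA and lower on HFD in the controls. Hadha stood at 197 and 311 CPM in YAP5SA against 390 and 205 in the controls. Hadhb stood at 92.8 and 150 CPM against 220 and 109. Acaa2 stood at 53.2 and 88.4 CPM against 107 and 42.9. All 3 had log2 folds between 0.66 and 0.73 in YAP5SA and between −1.32 and −0.93 in the controls, so the diet sat beside opposite directions with and without the virus.

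The gate of the mitochondrion did not share in it. Cpt1b, the muscle carnitine palmitoyltransferase that admits long-chain fatty acids, stood at 57.1 CPM in YAP5SA on chow and 64.0 on HFD, against 163 and 130, a log2 fold of 0.16 (0.08 to 0.25). It was low in both YAP5SA libraries. Acadl, the long-chain dehydrogenase, stood at 219 and 223 CPM, or a log2 fold of 0.03 (−0.02 to 0.07). Cd36, the main fatty acid uptake protein of heart muscle, stood at 420 and 658 CPM against 824 and 716, a log2 fold of 0.65 (0.62 to 0.68).

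**Figure D1:**
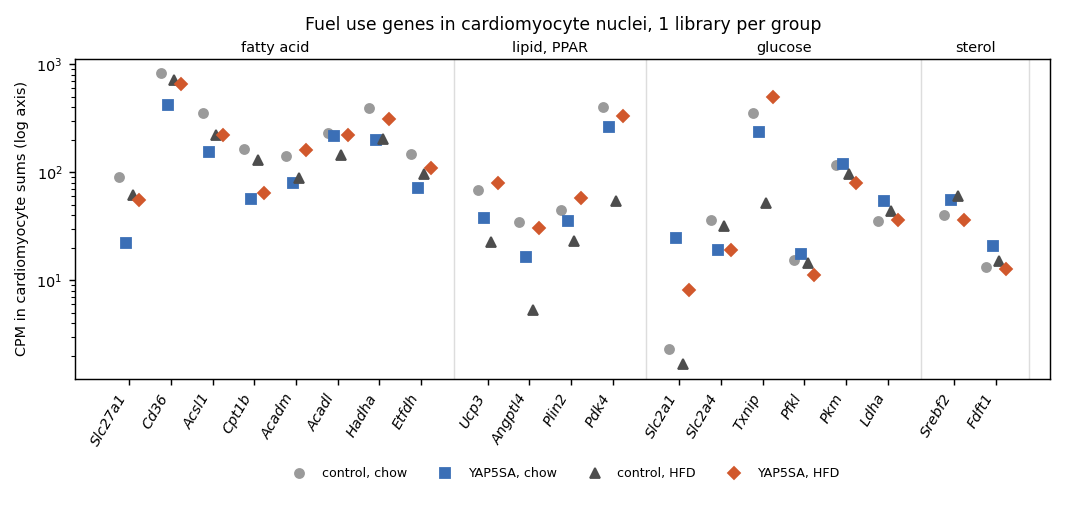
CPM of fuel use genes in the cardiomyocyte sum of each library, on a log axis, with 1 point per library and no error since each group is 1 library. Most fatty acid genes are lowest in YAP5SA on chow, Cpt1b is low in both YAP5SA libraries, and Slc2a1 is highest in YAP5SA on chow at 24.8 CPM.

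PPAR targets of lipid storage and use lay in the same direction. Of 27 listed genes 16 reached the floor, and the median log2 fold was 0.49. At least 1.5-fold higher were 5, and 0 were lower, against 12.2% and 3.84% of all genes. In the controls 0 of 19 were higher and 7 lower, against 8.02% and 2.31% of all genes, with a median of −0.44. Within response-high nuclei, defined further on, 3 of 12 were higher and 0 lower, beside 10.0% and 2.39% of all genes. Within response-low nuclei 2 of 19 were higher and 1 lower, beside 10.6% and 2.48% of all genes, with a median of 0.17.

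Angptl4, a secreted inhibitor of lipoprotein lipase, stood at 16.5 and 30.3 CPM against 34.5 and 5.37, and Plin2, a coat protein of lipid droplets, at 35.3 and 58.0 CPM against 44.9 and 23.3. Ucp3, a mitochondrial carrier tied to fatty acid use, stood at 38.1 and 78.8 CPM against 68.0 and 22.5. Each was lowest in control on HFD, not in YAP5SA on chow. Pdk4, the kinase that shuts off pyruvate dehydrogenase, stood at 260 and 329 CPM against 400 and 54.7, a log2 fold of 0.34 in YAP5SA and −2.87 in the controls.

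The receptors and co-activators above these targets did not stand apart. Of 17 PPAR, RXR, ERR and PGC1 genes 0 were 1.5-fold apart in either direction, where 12.2% of all genes were higher and 3.84% lower. Their median of 0.09 turned to −0.07 and −0.09 with TMM and DESeq2 scaling. Ppara, the fatty acid sensing receptor, stood at 84.0 and 95.3 CPM in YAP5SA, both far below the 275 and 366 CPM of the controls. Ppargc1a, the co-activator of mitochondrial growth, stood at 364 and 481 CPM against 614 and 1569.

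Glucose genes were mixed. Of 24 genes of glucose uptake and glycolysis 4 were at least 1.5-fold higher and 5 lower, against 12.2% and 3.84% of all genes. Their median was −0.16 in YAP5SA and −0.27 in the controls. Slc2a1, the fetal glucose transporter GLUT1, stood at 24.8 CPM in YAP5SA on chow and 8.11 on HFD, against 2.30 and 1.67, a log2 fold of −1.61 (−1.80 to −1.43). Slc2a4, the insulin-dependent adult transporter GLUT4, stood at 18.9 and 19.3 CPM. The fetal transporter was thus highest in YAP5SA on chow, still above both controls on HFD, while the adult transporter hardly differed by diet.

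Single glycolytic enzymes lay on both sides. Pkm, which yields the pyruvate kinase of growing cells and muscle, stood at 120 and 79.1 CPM in YAP5SA, and Ldha, the lactate-forming dehydrogenase subunit, at 54.4 and 36.05 CPM. Higher on HFD were genes of a phosphofructokinase, an enolase and a lactate dehydrogenase subunit: Pfkm stood at 45 and 77.0 CPM, Eno3 at 50.5 and 91.4, and Ldhb at 70.2 and 118. Txnip, an inhibitor of glucose uptake that answers to glucose itself, stood at 235 CPM in YAP5SA on chow and 495 on HFD, against 355 and 52.0, a log2 fold of 1.08 (1.04 to 1.12) in YAP5SA and −2.77 in the controls.

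Mitochondrial machinery further down differed little. Of 29 pyruvate entry and TCA cycle genes 1 was at least 1.5-fold higher and 0 lower, against 12.2% and 3.84% of all genes. Their median of 0.18 went to 0.02 with TMM and turned to −0.01 with DESeq2 scaling. Of 55 nuclear genes of the respiratory chain 2 were higher and 0 lower, against the same shares of all genes. Their median was 0.19, or 0.03 and 0.00 with those scalings. The 11 transcripts of the mitochondrial genome had a median of −0.22. Mpc1, a subunit of the pyruvate carrier, stood at 58.9 and 61.6 CPM in YAP5SA against 157 and 132. Oxct1, which lets the heart burn ketone bodies, stood at 224 CPM in YAP5SA on chow and 121 on HFD, against 248 and 267, so YAP5SA on HFD was the lowest library for this gene.

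Genes of cholesterol and fatty acid synthesis were more often lower than higher on HFD, at small counts. Of 16 at the floor 1 was at least 1.5-fold higher and 3 lower, against 12.2% and 3.84% of all genes. Their median was −0.31 in YAP5SA and 0.27 in the controls. With either TMM or DESeq2 scaling 0 were higher and 6 lower. Of all 9245 genes 677 were then lower with TMM and 737 with DESeq2 scaling. At a floor of 50 CPM the median of the list was −0.09. Srebf2, the sterol-sensing transcription factor, stood at 55.5 and 36.2 CPM against 40.3 and 60.5. Abca1, which exports cholesterol, lay the other way at 16.8 and 27.4 CPM in YAP5SA.

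Hormone and clock genes gave no common direction. Of 31 insulin, IGF and FoxO axis genes 5 were at least 1.5-fold higher and 3 lower, against 12.2% and 3.84% of all genes. Their median of 0.07 turned to −0.10 and −0.12 with TMM and DESeq2 scaling. Fbxo32, the ubiquitin ligase atrogin-1, stood at 44.3 and 109 CPM in YAP5SA and at 64.6 and 130 in the controls, higher on HFD in both arms. Irs2, an insulin receptor adaptor, stood at 45.3 and 26.2 CPM in YAP5SA against 41.6 and 134, so it lay in opposite directions. Of 16 circadian clock genes 3 were higher and 2 lower, against the same shares of all genes. Their median of 0.15 turned to −0.02 and −0.04 with those scalings. Per1, a repressor of the clock, stood at 15.85 and 9.26 CPM in YAP5SA against 17.3 and 40.6, also in opposite directions.

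**Figure D2:**
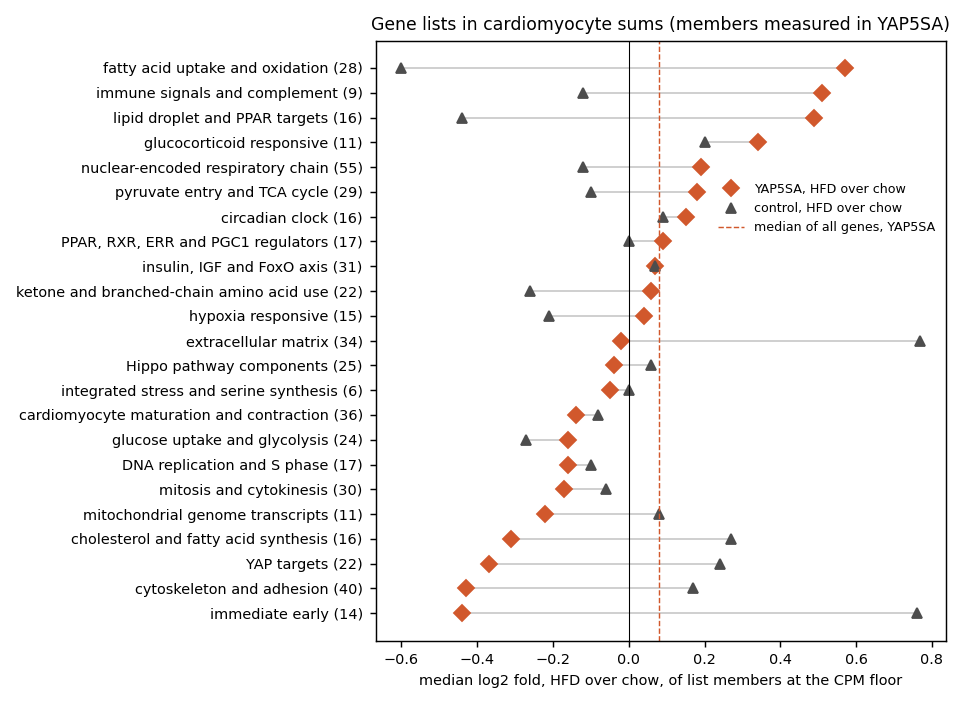
Median log2 fold of HFD over chow for each gene list in cardiomyocyte sums, with diamonds for YAP5SA, triangles for the controls, the number of members at the floor in YAP5SA in brackets, and a dashed line at the median of all genes in YAP5SA, 0.08. Fatty acid uptake and oxidation lies at 0.57 in YAP5SA and −0.60 in the controls, and the immediate early list at −0.44 and 0.76.

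YAP targets stood lower in sum on HFD. TEAD proteins, through which YAP acts, bind the element CATTCC or its reverse complement GGAATG. The window of 250 bases before the RefSeq start (GRCm38.p6) is shown for genes that the diet comparison turns on: Ccn1 and Ankrd1 from the YAP target list, Acta2 from the cytoskeleton list and Nppb, a natriuretic peptide gene. Capitals mark the element on either strand, and each sequence runs 5′ to 3′ on the strand of the gene.
Ccn1, chr3:145649986-145650235, minus strand: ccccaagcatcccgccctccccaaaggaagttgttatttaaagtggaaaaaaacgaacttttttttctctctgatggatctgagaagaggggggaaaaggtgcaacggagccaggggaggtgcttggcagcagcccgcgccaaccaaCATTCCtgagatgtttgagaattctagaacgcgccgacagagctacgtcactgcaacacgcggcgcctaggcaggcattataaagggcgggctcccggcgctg
Ankrd1, chr19:36119845-36120094, minus strand: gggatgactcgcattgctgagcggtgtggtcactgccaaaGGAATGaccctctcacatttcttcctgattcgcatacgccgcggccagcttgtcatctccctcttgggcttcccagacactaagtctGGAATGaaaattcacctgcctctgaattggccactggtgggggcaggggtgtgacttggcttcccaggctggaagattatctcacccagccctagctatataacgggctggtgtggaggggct
Acta2, chr19:34255374-34255623, minus strand: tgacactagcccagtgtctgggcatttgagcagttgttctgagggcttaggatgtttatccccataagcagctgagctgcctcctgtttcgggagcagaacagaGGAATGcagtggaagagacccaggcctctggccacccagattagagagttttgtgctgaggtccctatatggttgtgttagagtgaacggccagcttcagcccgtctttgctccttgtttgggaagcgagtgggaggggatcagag
Nppb, chr4:147985650-147985899, plus strand: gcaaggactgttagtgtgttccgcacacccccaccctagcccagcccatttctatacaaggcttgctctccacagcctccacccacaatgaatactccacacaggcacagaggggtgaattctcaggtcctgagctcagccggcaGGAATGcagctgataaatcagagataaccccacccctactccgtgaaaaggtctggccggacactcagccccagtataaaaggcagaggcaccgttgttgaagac
The element begins 103 bases before the start in Ccn1, 146 in Acta2 and 105 in Nppb, and Ankrd1 holds it 2 times, first at 210 bases. The GENCODE gene spans of Acta2 and Nppb printed below start further upstream than RefSeq, so both elements lie inside those spans. The same letters occur in 3880 of 27025 promoter windows (14.4%), in 8 of 18 matched YAP targets (44.4%), in 7 of 30 cytoskeleton genes (23.3%) and in 5 of 27 fatty acid genes (18.5%). A match describes the letters in the window and is no evidence of binding.

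Of 22 YAP targets at the floor 0 were at least 1.5-fold higher on HFD and 8 lower, against 12.2% and 3.84% of all genes. Their median was −0.37 in YAP5SA, or −0.66 at a floor of 50 CPM, and 0.24 in the controls. Within response-high nuclei 0 of 21 were higher and 2 lower, beside 10.0% and 2.39% of all genes. Within response-low nuclei 2 of 21 were higher and 4 lower, beside 10.6% and 2.48% of all genes. Ccn1, a secreted matrix protein, stood at 163 CPM in YAP5SA on chow and 61.8 on HFD, against 12.0 and 16.7, a log2 fold of −1.40 (−1.47 to −1.33). Ccn2, the connective tissue growth factor, stood at 332 and 149 CPM against 33.5 and 39.7, and Ankrd1, a nuclear ankyrin repeat protein of stretched heart muscle, at 2746 and 1562 CPM against 1026 and 811. These 3 genes were above both controls in both YAP5SA libraries, and higher of the pair on chow.

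Genes that act with YAP or upstream of it gave mixed values. Tead1, its main DNA-binding partner in heart, stood at 1170 and 788 CPM against 628 and 693, and Amotl2, a target that binds and holds back YAP, at 214 and 115 CPM against 31.0 and 27.9. Wwc1, the upstream Hippo protein KIBRA, stood at 151 and 70.2 CPM against 2.07 and 2.72. Yap1 transcripts stood at 107 and 121 CPM in YAP5SA, a log2 fold of 0.18, against 135 and 122. Of 25 Hippo components as a list 0 were at least 1.5-fold higher and 4 lower, against 12.2% and 3.84% of all genes. With TMM scaling 8 were lower and with DESeq2 scaling 9, where 677 and 737 of all 9245 genes were. The list median was −0.04 by CPM.

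Genes of the cytoskeleton and cell adhesion also stood lower on HFD. Of 40 at the floor 0 were at least 1.5-fold higher and 13 lower, against 12.2% and 3.84% of all genes. The median was −0.43 in YAP5SA and 0.17 in the controls. Response-high nuclei had 1 of 40 higher and 6 lower, beside 10.0% and 2.39% of all genes, with a median of −0.24. Response-low nuclei had 0 of 41 higher and 9 lower, beside 10.6% and 2.48% of all genes, with a median of −0.22. Acta2, the smooth muscle actin that fetal cardiomyocytes also make (chromosome 19, 34241090 to 34255590), stood at 578 CPM in YAP5SA on chow and 148 on HFD, against 146 and 166. Its log2 fold was −1.96 (−2.0 to −1.92), and on HFD its level lay between the controls. Actn1, the alpha-actinin of adhesions, stood at 320 and 139 CPM against 70.3 and 73.0, and Actb, cytoplasmic actin, at 350 and 153 CPM against 219 and 208. Ilk, the integrin-linked kinase, stood at 38.0 and 14.8 CPM against 24.9 and 23.3. Actn1 stayed above the controls on HFD, while Actb and Ilk were below them. Smooth muscle markers, a list that itself holds Acta2 and Tagln, had 0 of 7 higher and 3 lower in the same sums. Their summed level was 1980 CPM on chow and 1490 on HFD with no marker at 0, and their part in these values was not tested.

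The natriuretic peptides, released by loaded or fetal heart muscle, were lower on HFD too. Nppb (chromosome 4, 147985788 to 147987205) stood at 526 CPM in YAP5SA on chow and 155 on HFD, against 122 and 83.3, a log2 fold of −1.76 (−1.80 to −1.72). Nppa (chromosome 4, 148000722 to 148002079) stood at 337 and 113 CPM against 57.2 and 66.6, a log2 fold of −1.58 (−1.63 to −1.53). Both were highest in YAP5SA on chow and still above both controls on HFD. Atrial cardiomyocyte markers, which include Nppa, had 1 of 5 members at least 1.5-fold higher and 1 lower, beside 12.2% and 3.84% of all genes. Their summed level in the same sums was 450 CPM on chow and 315 on HFD with no marker at 0. Their part in the Nppa value was not tested.

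Contractile genes lay in both directions. Of 36 maturation and contraction genes 4 were at least 1.5-fold higher and 6 lower, against 12.2% and 3.84% of all genes. Their median was −0.14. Pln, the brake on the calcium pump of the sarcoplasmic reticulum, stood at 498 CPM in YAP5SA on chow and 1052 on HFD, against 1136 and 928, so on HFD it lay between the controls. Kcnd2, a channel of early repolarisation, stood at 478 and 1285 CPM against 1037 and 2056. Hopx, a homeodomain cofactor of heart development, stood further from the controls on HFD, at 85.1 and 37.3 CPM against 239 and 217. Actc1, cardiac actin, stood at 594 and 377 CPM against 786 and 737, and Tnni1, the fetal troponin I, at 49.7 and 23.7 CPM against 52.4 and 14.4.

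Counts of cell cycle genes in cardiomyocytes depended on scaling. Of 17 S phase genes 2 were at least 1.5-fold higher and 1 lower, and of 30 genes of mitosis and cytokinesis 0 were apart in either direction, with medians of −0.16 and −0.17. By CPM 12.2% of all genes were higher and 3.84% lower. With TMM scaling 0 were higher and 4 lower in either list, and with DESeq2 scaling 0 and 5. Of all 9245 genes 707 were then higher and 677 lower with TMM, and 674 and 737 with DESeq2 scaling. Mki67, a marker of cycling cells, stood at 37.2 CPM in YAP5SA on chow and 38.5 on HFD, against 29.8 and 28.5. Top2a, the topoisomerase of dividing cells, stood at 82.6 and 81.4 CPM against 62.5 and 60.7. Both were above the controls on either diet.

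Immediate early genes, which respond to stimuli within minutes, were lower on HFD in YAP5SA and higher on HFD in the controls. Of 14 at the floor 0 were at least 1.5-fold higher and 6 lower in YAP5SA, against 12.2% and 3.84% of all genes, with a median of −0.44. In the controls 8 of 13 were higher and 0 lower, against 8.02% and 2.31% of all genes, with a median of 0.76. Nr4a1, an orphan nuclear receptor, stood at 39.0 CPM in YAP5SA on chow and 14.05 on HFD, against 9.36 and 81.1. Egr1, a zinc finger factor, stood at 24.0 and 11.35 CPM against 5.96 and 13.7. The summed level of the list was 530 and 347 CPM in YAP5SA, against 261 and 557, so control on HFD and YAP5SA on chow were the high libraries.

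Immune genes at the floor were few. Of 9 genes 4 were at least 1.5-fold higher and 2 lower in YAP5SA, against 12.2% and 3.84% of all genes. With TMM scaling 1 was higher and 2 lower, and with DESeq2 scaling 1 and 3. Of all 9245 genes 707 were then higher and 677 lower with TMM, and 674 and 737 with DESeq2 scaling. The list median of 0.51 by CPM turned to −0.40 at a floor of 50 CPM. B2m and H2-D1, parts of the class I antigen display, stood at 16.9 and 26.85 CPM and at 19.3 and 31.9 CPM, and Ccl2, the monocyte chemokine, at 34.5 and 14.5 CPM. Macrophage markers were also higher in the cardiomyocyte sums. Of 6 at the floor 4 were at least 1.5-fold higher and 0 lower, beside 12.2% and 3.84% of all genes. None was at 0, and their summed level was 268 CPM on chow and 341 on HFD. Their part in the immune genes was not tested.

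The genes furthest apart between the YAP5SA cardiomyocyte sums were taken by a fixed rule: a mean of at least 20 CPM, a counting interval wholly beyond 2-fold, and the 12 most extreme in each direction, out of 68 higher and 48 lower. Among the 12 higher genes YAP5SA on HFD was the highest of the 4 libraries for 9, and YAP5SA on chow the lowest for 9. Among the 12 lower genes YAP5SA on chow was the highest for 10, and YAP5SA on HFD the lowest for 1. Taking the most extreme genes of this pair favours such an order, so these counts are a description of the genes chosen.

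The gene furthest higher was Art1 (chromosome 7, 102101743 to 102113933), a cell surface ADP-ribosyltransferase of striated muscle. It stood at 11.4 CPM in YAP5SA on chow and 112 on HFD, against 23.3 and 45.4, a log2 fold of 3.29 (3.14 to 3.44). The related Art5 (chromosome 7, 102096879 to 102109489) stood at 4.58 and 42.8 CPM against 6.996 and 10.96, a log2 fold of 3.22 (2.99 to 3.47). The annotations of the pair overlap on opposite strands, and the sources used here do not give how reads in the overlap were assigned, so the separate values are uncertain. Both were highest in YAP5SA on HFD.

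Iigp1, an interferon-induced GTPase, stood at 6.01 CPM in YAP5SA on chow and 42.1 on HFD, against 6.10 and 4.55, a log2 fold of 2.80 (2.60 to 3.02). Kcnj3, an atrial potassium channel subunit, stood at 26.4 and 111 CPM against 84.0 and 179, and Fmo5, a flavin monooxygenase, at 8.86 and 36.4 CPM against 20.85 and 17.4. Asb15, a muscle ubiquitin ligase adaptor, stood at 10.3 and 41.7 CPM against 25.05 and 26.25. Iigp1 was high in YAP5SA on HFD alone among the 4 libraries, while Kcnj3, Fmo5 and Asb15 were lowest in YAP5SA on chow.

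Of the other higher genes, Tbxas1, the thromboxane synthase, stood at 10.7 and 39.7 CPM against 8.46 and 14.8. It is also a macrophage gene, at 46.2 and 78.8 CPM in the other-cell sums, and the part of such RNA was not tested. Cacna2d3, a calcium channel subunit, stood at 20.3 and 68.1 CPM against 27.0 and 39.8. Rftn2, a raft protein, stood at 11.5 and 37.8 CPM against 19.8 and 21.9. Alpk1, an innate immune kinase, and Ntm, a neural adhesion protein, were higher on HFD in both arms, at log2 folds of 1.73 and 1.62 in YAP5SA and 1.82 and 1.61 in the controls. Pip5k1bos, an antisense RNA whose reads cannot be told from its partner without strand, stood at 14.9 and 45.3 CPM against 21.4 and 13.65.

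Among the lower genes, several secreted or surface factors were high with the virus on chow. Tgfb3, a transforming growth factor, stood at 88.3 CPM in YAP5SA on chow and 27.8 on HFD, against 4.20 and 7.85. Igfbp2, which binds insulin-like growth factors, stood at 47.2 and 15.2 CPM against 0 and 0.0655. Pdpn, the membrane protein podoplanin, stood at 63.0 and 20.25 CPM against 3.13 and 5.33, and Adamts20, a metalloprotease, at 32.0 and 11.1 CPM against 3.20 and 5.33. For these 4 genes YAP5SA on HFD stood above both controls. Within response-high and response-low nuclei, defined further on, their log2 folds ran from −1.26 (Adamts20) to −0.84 (Igfbp2) and from −1.60 (Igfbp2) to −0.19 (Adamts20).

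The remaining lower genes differed in where they stood on HFD. Gadd45g, a growth arrest gene, stood at 134 and 44.6 CPM against 21.2 and 12.7, still above the controls. Rian, an imprinted long RNA, stood at 129 and 41.5 CPM against 20.3 and 44.15, and Baiap2l1, a membrane-bending adaptor, at 418 and 146 CPM against 137 and 319, both between the controls on HFD. Adam22, a surface protein without protease activity, was at 35.25 and 10.8 CPM against 39.9 and 38.5, so here YAP5SA on HFD was the low library.

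**Figure D3:**
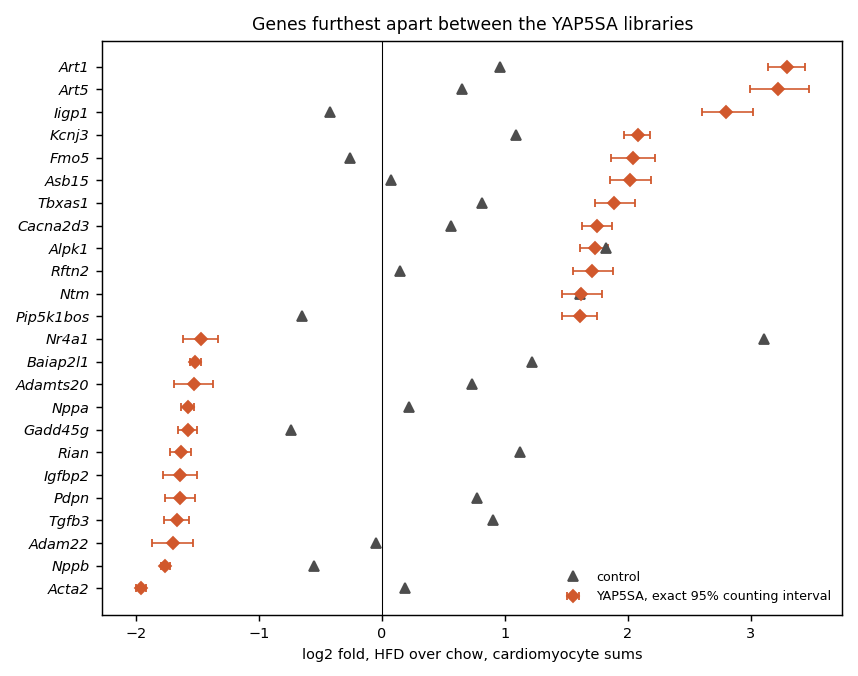
Log2 fold of HFD over chow in cardiomyocyte sums for the 24 genes furthest apart between the YAP5SA libraries, with diamonds and 95% counting intervals for YAP5SA and triangles for the controls. Art1 is furthest right at 3.29, Acta2 furthest left at −1.96, and Nr4a1 has its control triangle at 3.11 on the opposite side.

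The cardiomyocyte sums mix nuclei with and without a strong response to the virus. A response-high nucleus was one with at least 0.1% of its UMIs in 10 genes that earlier work on these libraries had picked as far above control on both diets (Cemip, Ptchd4, Sema3e, Vgll3, Wwc1, Hs6st2, Pak3, Col4a3, Col4a4 and Plcxd2), so their excess over control is no finding. The response-high share of cardiomyocyte nuclei was 47.1% (exact 95% interval 45.7% to 48.4%) in YAP5SA on chow and 24.7% (23.6% to 25.8%) on HFD, against 0.373% and 0.656% in the controls. After thinning every nucleus to 2000 UMIs the shares were 50.4% and 27.7%, with 172 and 157 shallower nuclei left out. A total of 756 and 680 nuclei lay between 0.05% and 0.2%, near the limit.

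Other-cell nuclei, in which the cTnT promoter should be silent, passed the same limit in 20.3% on chow and 16.2% on HFD, and in 11.6% and 13% in the controls. In the other-cell sums of the controls the 10 genes held 414 and 419 CPM, and in those of YAP5SA 749 and 675 CPM. The classes are ranges of a score and not cell types, and levels of the 10 genes within a class are bounded by its limits. Summed over the 10 genes, response-high nuclei held 8120 CPM on chow and 7620 on HFD. Within them 0 of 10 genes were at least 1.5-fold higher and 1 was lower, where 10.0% and 2.39% of all genes were, with a median of −0.18, against −0.97 over all cardiomyocyte nuclei. Cemip, which degrades hyaluronan, stood at −0.57 over all nuclei and at 0.27 within response-high nuclei, and Sema3e, a guidance factor, at −0.79 and 0.05.

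Counts of genes 2-fold apart were smaller within a class but not gone. Among response-high nuclei 248 of 8884 genes (2.79%) were at least 2-fold higher on HFD and 47 (0.529%) lower. Among response-low nuclei, with under 0.05%, 289 of 9152 (3.16%) were higher and 51 (0.557%) lower. The fatty acid list had a median of 0.35 in response-high and 0.28 in response-low nuclei, below the 0.57 of the whole, where all genes had 0.06 and 0.07. In response-high nuclei 5 of 26 members at the floor were at least 1.5-fold higher and 0 lower, beside 10.0% and 2.39% of all genes. In response-low nuclei 2 of 29 were higher and 0 lower, beside 10.6% and 2.48% of all genes. With the classes weighted to equal shares in both libraries, an alternative chosen after seeing the data, the fatty acid median was 0.33, that of the lipid list 0.24 and that of YAP targets −0.21.

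Single genes separated by this step. Slc27a1 stood at 1.12 and 0.89 in response-high and response-low nuclei and Acadm at 0.88 and 0.69, each higher on HFD in both classes. Cpt1b turned from 0.16 over all nuclei to −0.22 and −0.19, and Pdk4 from 0.34 to −0.02 and −0.07. Myh6 turned from 0.10 to −0.08 and −0.34. For these 3 genes the direction over all nuclei was not seen in either class. Ccn1 stood at −1.04 and −0.93, Acta2 at −1.55 and −1.54, Nppb at −1.36 and −1.56 and Art1 at 3.59 and 2.66, so the lower and higher levels on HFD were present in both classes.

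Matrix genes in the cardiomyocyte sums had unlike values in the classes. Thbs1, a matricellular protein, stood at −0.89 over all nuclei, −0.16 within response-high nuclei and −0.92 within response-low nuclei. Col12a1, a fibril-bridging collagen, stood at −0.85, −0.04 and −1.03, and Tnc, tenascin C of wounds and growth, at −1.12, −0.63 and −1.29. In YAP5SA on chow Thbs1, Col12a1 and Tnc held 93.8, 279.5 and 187 CPM in cardiomyocyte sums and 396, 153 and 2195 in fibroblast-like sums. The whole list had a median of −0.07 in response-high and −0.06 in response-low nuclei. In sum the matrix list had 1 of 34 genes at least 1.5-fold higher and 6 lower in YAP5SA, with a median of −0.02. At this limit 12.2% of all genes were higher and 3.84% lower. In the controls 19 of 32 were higher and 0 lower, against 8.02% and 2.31% of all genes. Fibroblast markers in the same control sums went from 793 to 1400 CPM. In the YAP5SA cardiomyocyte sums 2 of 11 fibroblast markers were higher and 0 lower, none was at 0, and their summed level was 863 and 1100 CPM. Their part in the matrix values was not tested.

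**Figure D4:**
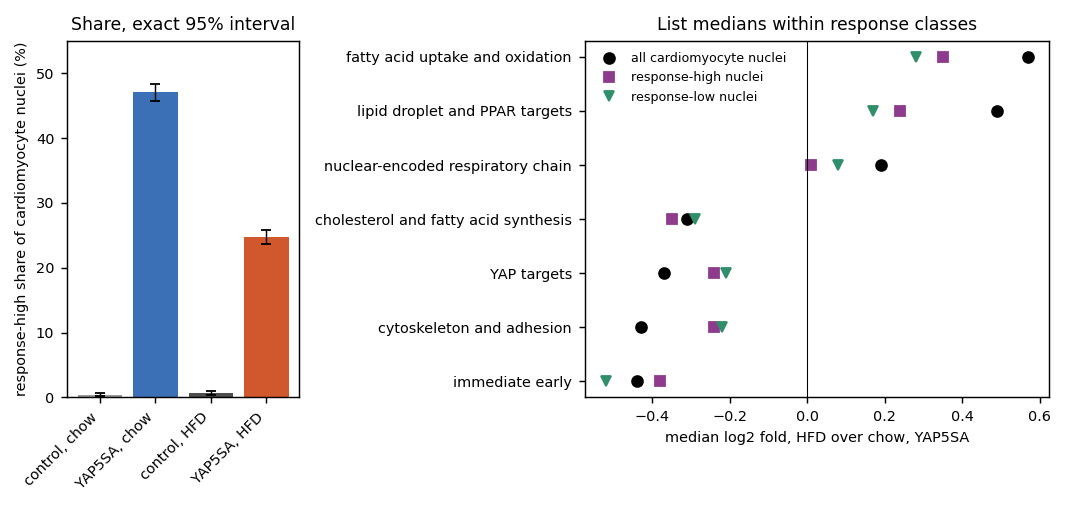
Left, share of cardiomyocyte nuclei with at least 0.1% of UMIs in the 10 response genes, with exact 95% intervals, at 47.1% in YAP5SA on chow and 24.7% on HFD. Right, median log2 fold of HFD over chow of 7 gene lists over all cardiomyocyte nuclei and within response-high and response-low nuclei, where the fatty acid and YAP target medians lie nearer to 0 within either class.

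Cardiomyocytes made up 61.1% (60.1% to 62.1%) of kept nuclei in YAP5SA on chow and 54.8% (53.9% to 55.8%) on HFD, against 63.1% and 43.6% in the controls. Shares of nuclei also depend on how each cell type releases its nuclei, which was not tested. In the other-cell sums, which mix all remaining types, 202 of 10694 genes (1.89%) were at least 2-fold higher on HFD and 108 (1.01%) lower. Between the controls the counts were 19 (0.186%) and 11 (0.107%) of 10242. Of the genes 2-fold apart 65.2% were higher by CPM, 50.5% with TMM and 47.8% with DESeq2 scaling.

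Marker lists showed which types differed in the other-cell sums. All 8 epicardial markers at the floor were at least 1.5-fold lower on HFD, with a summed level of 634 and 270 CPM in YAP5SA against 534 and 585. At this limit 8.0% of all genes were higher and 4.01% lower. Wt1, the transcription factor of the epicardium, stood at 102 and 36.6 CPM against 108 and 118, and the mesothelial surface genes Upk3b and Msln at log2 folds of −1.78 and −1.72. Of 10 macrophage markers 7 were higher and 0 lower, with 811 and 1220 CPM in sum, and Adgre1, which encodes the macrophage antigen F4/80, stood at 35.2 and 95.55 CPM. Of 11 endothelial markers 0 were higher and 6 lower, with 2400 and 1610 CPM.

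Leiden clusters of the other-cell nuclei, named by those markers, gave the same picture as shares of kept nuclei. Macrophage-like nuclei made up 2.49% (2.17% to 2.84%) in YAP5SA on chow and 5.08% (4.67% to 5.51%) on HFD, against 1.66% and 2.48%. Epicardial-like nuclei made up 3.56% (3.18% to 3.98%) and 1.72% (1.48% to 1.98%), against 1.95% and 3.95%. Fibroblast-like nuclei made up 14.2% (13.5% to 15%) and 21.1% (20.3% to 21.9%), against 16.9% and 25.1%. Macrophage-like nuclei were thus most common in YAP5SA on HFD, epicardial-like nuclei were about as common there as in control on chow, and fibroblast-like nuclei were more common on HFD in both arms. As shares of other-cell nuclei, fibroblast-like nuclei made up 38.8% and 48.7% in YAP5SA but 47% and 45.8% in the controls. Macrophage-like nuclei made up 6.81% and 11.7% against 4.62% and 4.51%, and epicardial-like nuclei 9.74% and 3.96% against 5.41% and 7.2%, so the control order by diet depended on the denominator for the first and second of these classes.

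Endothelial-like nuclei made up 4.76% (4.33% to 5.23%) in YAP5SA on chow and 3.96% (3.6% to 4.35%) on HFD, against 6.59% and 8.25%. Endocardial-like nuclei made up 6.88% (6.35% to 7.43%) and 5.65% (5.22% to 6.10%), against 3.48% and 6.36%. Pericyte-like nuclei made up 1.33% (1.10% to 1.59%) and 2.23% (1.96% to 2.53%), against 2.29% and 2.57%. Clusters left without a name held 6.24% of the other-cell nuclei on chow and 5.42% on HFD. The largest of them, cluster 7, had the response genes Ptchd4, Cemip and Pak3 among its top 10 genes. It held 86 and 155 nuclei, against 35 and 125 in the controls.

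**Figure D5:**
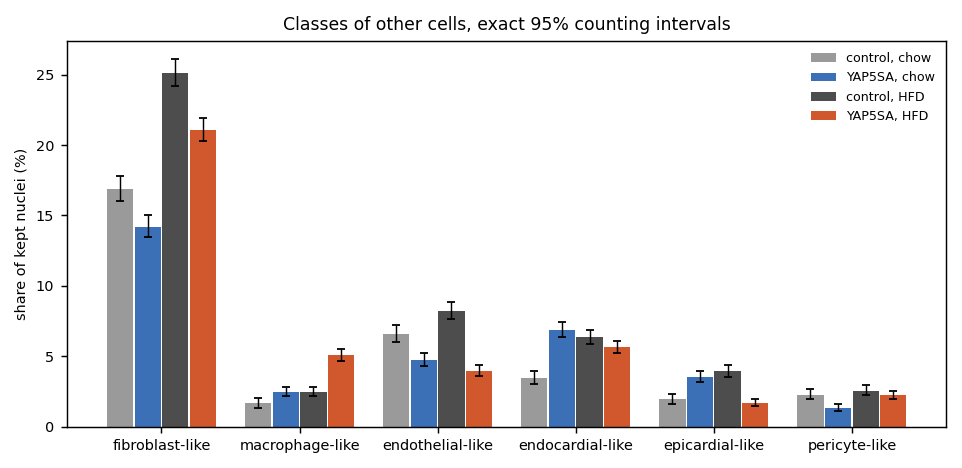
Share of kept nuclei in each class of other cells, 1 bar per library, with exact 95% counting intervals. Macrophage-like nuclei are most common in YAP5SA on HFD at 5.08%, and epicardial-like nuclei stand at 3.56% in YAP5SA on chow and 1.72% on HFD.

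Fibroblast-like nuclei, in which the virus promoter should be silent, were the largest class of other cells in all 4 libraries. In these sums 167 of 10131 genes (1.65%) were at least 2-fold higher on HFD and 84 (0.829%) lower, against 34 (0.351%) and 26 (0.268%) of 9695 between the controls. Cluster 3 held 49.5% of the class on chow and 43.1% on HFD, and cluster 10, with cell cycle genes in the lead, held 26.3% and 26.1%. The controls had 2.14% and 1.75% in cluster 3, so their fibroblast-like sums came from other clusters.

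Thbs4, a thrombospondin of injured tissue, stood at 273 CPM in YAP5SA on chow and 59.6 on HFD, against 2.74 and 2.83, a log2 fold of −2.19 (−2.34 to −2.05). Ccl2 stood at 239 and 56.3 CPM against 8.22 and 10.6, a log2 fold of −2.08 (−2.23 to −1.94). Tnc stood at 2195 and 837 CPM against 200.3 and 293. All 3 were far above the controls on chow and remained above them on HFD at a lower level. Thbs1 stood at 396 and 131 CPM against 77.6 and 84.9, and Ptgs2, the inducible cyclooxygenase, at 39.1 and 12.7 CPM against 1.05 and 4.05.

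Tagln and immediate early genes also stood lower on HFD. Tagln, the actin-binding protein of myofibroblasts, stood at 103 CPM in YAP5SA on chow and 21.2 on HFD, against 21.9 and 29.3, so on HFD it lay below both controls. Egr1 stood at 240 and 84.7 CPM against 70.4 and 79.5, and Nr4a1 at 50.4 and 18.15 CPM against 20.03 and 44.2. Of 20 immediate early genes 0 were at least 1.5-fold higher and 13 lower in YAP5SA, against 7.4% and 2.94% of all genes, with a median of −0.94, while 9 of 16 were higher and 0 lower in the controls, against 2.4% and 2.42% of all genes, with a median of 0.66. The matrix list had 3 of 38 genes higher and 4 lower in YAP5SA, beside 7.4% and 2.94% of all genes, with a median of −0.00. Col1a1, the main chain of type I collagen, stood at 652 and 664 CPM and Col3a1 at 1365 and 1648 CPM. Postn, periostin of activated fibroblasts, stood at 2316 and 1883 CPM against 1298 and 1535.

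Among the genes furthest higher in fibroblast-like sums was C1qtnf7, a secreted metabolic factor, at 122 and 382 CPM against 517 and 908, so it was lowest in YAP5SA on chow. The X-linked adhesion gene Il1rapl1 stood at 14.8 and 47.8 CPM against 48.5 and 44.8. Kcnip4, a potassium channel partner, stood at 15.4 and 70.9 CPM against 11.8 and 10.8, and Csmd1, a complement regulator, at 29.8 and 108 CPM against 23.8 and 23.0, both highest in YAP5SA on HFD.

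The globin genes also led that list and went the other way elsewhere. Hbb-bs, adult beta globin, stood at 82.8 CPM in YAP5SA on chow and 492 on HFD in fibroblast-like sums, against 90.9 and 182, but at 96.2 and 49.98 CPM in the cardiomyocyte sums and 464 and 317 in the other-cell sums. Hbb-bt and Hba-a1 were higher in fibroblast-like sums by log2 folds of 2.96 and 2.19. Of 4 erythroid markers there 3 were at least 1.5-fold higher and 0 lower, beside 7.4% and 2.94% of all genes. The summed level was 188 and 922 CPM, and 1 of the 7 listed markers was at 0. With doublets removed the log2 fold of Hbb-bs in fibroblast-like sums was 1.79 instead of 2.57. That removal took the class from 1232 to 1227 nuclei on chow and from 2262 to 2259 on HFD. The fold thus rested in part on a few nuclei.

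Macrophage-like nuclei numbered 216 in YAP5SA on chow and 545 on HFD, and the controls held 106 and 208, too few for control folds. Clusters 5 and 6 each held 108 nuclei on chow, and cluster 6, led by Mrc1, F13a1 and Cd163, held 74.7% on HFD, so the sums compare different mixtures. Adam8, a surface protease of activated leukocytes, stood at 169 CPM on chow and 28.8 on HFD, a log2 fold of −2.54 (−3.04 to −2.08). Hmox1, the heme oxygenase, stood at 137 and 27.3 CPM, and Srgn, a proteoglycan of secretory granules, at 253 and 72.5 CPM. Cd80, a T cell co-stimulator, stood at 105 and 29.8 CPM, and Tgm2 and Plcb1 at log2 folds of −1.82 and −1.83. Hpgd, which breaks down prostaglandins, stood higher, at 40.7 and 189 CPM, a log2 fold of 2.19 (1.66 to 2.82), and Gpr34 and Abca9 at 1.68 and 1.63. Ogn and Ecm2, matrix genes that also stood higher in the other-cell sums as a whole, were at log2 folds of 1.97 and 1.71. The part of RNA from other cell types in these values was not tested.

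Mitosis genes leaned higher in the other-cell sums. Of 34 genes 6 were at least 1.5-fold higher and 0 lower, beside 8.0% and 4.01% of all genes. With TMM scaling 4 were higher and with DESeq2 scaling 3, where 657 and 630 of all 10694 genes were. By CPM 33 of the list were above 0, and the median was 0.41 in YAP5SA. Prc1, which bundles the midzone microtubules, stood at 80.9 and 142 CPM against 62.2 and 63.0, and Mki67 at 75.9 and 111 CPM against 63.75 and 61.8. Within fibroblast-like nuclei alone 1 of 35 was higher and 0 lower, beside 7.4% and 2.94% of all genes, with a median of 0.15. Immediate early genes were lower in the other-cell sums as well. Of 20 genes 0 were higher and 16 lower, against 8.0% and 4.01% of all genes, with a median of −0.91. In the controls 5 of 16 were higher and 0 lower, against 1.38% and 0.986% of all genes, with a median of 0.35.

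Transcripts of the mitochondrial genome stood lower in other cells. Of 12 transcripts of the mitochondrial genome 0 were at least 1.5-fold higher and 6 lower, beside 8.0% and 4.01% of all genes. Their summed level was 11600 CPM in YAP5SA on chow and 7230 on HFD, against 13500 and 11600. Their median was −0.57, or −0.23 with the stricter nucleus filter of at least 1000 genes and at most 1% mitochondrial UMIs. The median share of mitochondrial UMIs per other-cell nucleus was 0.583% and 0.234%, and its part in other values was not tested. Of 16 hypoxia responsive genes in these sums 0 were higher and 7 lower, beside 8.0% and 4.01% of all genes. Their median was −0.42. In cardiomyocytes 1 of 15 was higher and 3 lower, beside 12.2% and 3.84% of all genes. The cardiomyocyte median of 0.04 turned to −0.13 and −0.15 with TMM and DESeq2 scaling. Egln3, an oxygen-sensing hydroxylase that hypoxia induces, stood at 27.4 and 10.4 CPM in the other-cell sums and at 55.2 and 20.5 CPM in cardiomyocytes. C3, the central complement protein, stood at 84.5 and 18.8 CPM against 66.6 and 36.6.

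Fggy, a carbohydrate kinase gene (chromosome 4, 95557507 to 95926939), was low in YAP5SA on HFD in 3 classes. In the cardiomyocyte sums it lay under the 20 CPM limit of the rule above and was added after its values were seen. It stood at 21.8 CPM in YAP5SA on chow and 1.76 on HFD there, against 49.9 and 53.4, a log2 fold of −3.62 (−4.01 to −3.28). In fibroblast-like sums it stood at 46.1 and 4.51 CPM against 59.3 and 52.5, and in macrophage-like sums at 112 and 10.3 CPM against 169 and 216. YAP5SA on HFD was the low library in all 3, and the other libraries stood at 21.8 CPM or more in each.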

How the data were processed

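The members of the comparison, the gene lists and the rules were chosen with earlier results of these data known. Per the labels, nuclei of whole hearts were isolated and libraries made with 10x Genomics 3′ chemistry. The deposited values are raw counts of UMIs for each gene in each nucleus, made by the authors with Cell Ranger 7.1.0 on mm10, per the submitters' processing notes, with no normalization. The annotation behind the gene names was not given in the sources used here, nor whether intronic reads were counted or strand was used. Of 32291 features 6 are added sequences, and 32235 were matched by identifier to GENCODE vM21 for coordinates (1-based).

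Counts were summed per library and group and scaled to CPM, per 1e6 UMIs of the sum. Log2 folds used a prior of 0.5 counts and an exact 95% conditional binomial interval (scipy 1.17.1, numpy 2.4.6, Python 3.11.15), and shares an exact Clopper-Pearson interval. Neither covers differences between animals. The YAP5SA cardiomyocyte sums held 34753591 UMIs on chow and 39218362 on HFD, the other-cell sums 13655590 and 19173030. Genes at a mean of at least 10 CPM over the compared sums were counted at 2-fold, and lists at 1.5-fold. Xist, Tsix, Y-linked genes and the added sequences were left out of counts. The fold code was run on simulated Poisson counts, which hold no differences between animals. edgeR 4.0.16 (TMM) and DESeq2 1.42.0 (size factors) in R 4.3.3 served only as other scalings. Nuclei with an intermediate share of the 6 cardiomyocyte genes, 201 on chow and 196 on HFD, were left out.

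Named genes of the cardiomyocyte sums were the 12 per direction with the largest folds at a mean of at least 20 CPM and an interval wholly beyond 2-fold, leaving out the 6 genes of the rule, unnamed gene models, mitochondrial genes and genes more than 2-fold higher in other cells in both libraries. In fibroblast-like and macrophage-like sums 8 per direction were taken, at 50 CPM for the latter. List members were also named.

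Other-cell nuclei of all 4 libraries were clustered with the Leiden algorithm (scanpy 1.11.5, igraph 0.11.9, 3000 variable genes, 30 principal components, 15 neighbours, resolution 1, seed 0), which gave 26 clusters. Each cluster was named for the marker list of which it held the largest share, with at least 3 markers present, and "-like" marks that names rest on markers alone. A cluster stayed unnamed where under 0.5 of the markers were present. It also stayed unnamed where its top 10 genes held more markers of another type, or more of the 10 response genes, than own markers. The share rule was set after seeing the data. Doublets were kept in, and removed in an alternative with Scrublet, using the top 0.8% per 1000 nuclei where its threshold marked under 0.5%, as in both chow libraries.

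Alternatives were the scalings, floors of 50 CPM and none, a prior of 5 counts, a stricter nucleus filter (1000 genes, 1% mitochondrial UMIs), doublet removal, equal weight per nucleus, other class limits, and response classes alone. Equal shares of response classes and the removal of X-linked genes were added after seeing the data.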

Additional observations from a re-analysis of the deposited data

Results flagged for a closer look

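Opposite diet folds in the YAP5SA and control pairs are listed here as log2 folds of HFD over chow. Each rests on 1 library per group, and the difference between the pairs was not tested. In cardiomyocyte sums Nr4a1 stood at −1.47 in YAP5SA and 3.11 in the controls, Baiap2l1 at −1.52 and 1.22, Rian at −1.63 and 1.12, and Tgfb3 at −1.67 and 0.90. Pdpn stood at −1.64 and 0.77, Adamts20 at −1.53 and 0.73, and Pip5k1bos at 1.61 and −0.65. In fibroblast-like sums Ptgs2 stood at −1.62 and 1.82, and Nr4a1 at −1.47 and 1.14.

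Medians of 4 lists lay in opposite directions in cardiomyocyte sums, also not tested. Fatty acid uptake and oxidation stood at 0.57 in YAP5SA and −0.60 in the controls, lipid droplet and PPAR targets at 0.49 and −0.44, cholesterol and fatty acid synthesis at −0.31 and 0.27, and the immediate early list at −0.44 and 0.76. In other-cell sums the immediate early list stood at −0.91 and 0.35.

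The added sequence named nsp13, whose relation to the virus the labels do not state, had 559 UMIs in YAP5SA on chow and 233 on HFD, against 0 and 1 in the controls on chow and HFD. Within response-high nuclei it stood at 21.3 CPM on chow and 10.1 on HFD, and within response-low nuclei at 5.41 and 2.11.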

How the results depend on the processing

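No paired analysis was possible because each group is 1 library. In cardiomyocyte sums 350 genes were at least 2-fold higher on HFD, against 228 with TMM, 216 with DESeq2 scaling, 69 at a floor of 50 CPM and 4709 with no floor. At least 2-fold lower were 83, against 146, 160, 35 and 1679 in that order, 47 in response-high nuclei alone, 51 in response-low nuclei alone and 43 with response classes at equal shares. In other-cell sums the 202 higher genes became 32 at a floor of 50 CPM and 3811 with no floor, and the 108 lower genes 30 and 2026. The cardiomyocyte share, 61.1% on chow and 54.8% on HFD, was 71.6% and 61.6% with the stricter nucleus filter, 59.8% and 52.7% with doublets removed, and 50.7% and 48.5% at a limit of 1.5%, so chow stayed the higher. The response-high share, 47.1% and 24.7%, was 38.4% and 18.0% at that limit, 39.9% and 19.5% at a response limit of 0.2%, and 50.4% and 27.7% after thinning. Of the values for single genes and lists under these alternatives, 904 stayed near the reported value and 80 moved. The fold of Nrg1 in macrophage-like sums, −1.94, turned to 1.82 with the stricter filter. Medians of lists turned sign too, beside those named above: glucocorticoid responsive, 0.34, stood at −0.11 with no floor and −0.02 in response-high nuclei, and integrated stress and serine synthesis, −0.05, at 0.54 at a floor of 50 CPM. The cause was not tested. With X-linked genes left out, counts of genes stayed within 1.5-fold. Depth limits the macrophage-like sums, whose folds rest on 216 nuclei on chow.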
